A study of Mus musculus with 18 samples.

Results

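The immunoglobulin light chain genes described here are the variable and constant genes of the kappa and lambda light chains. They were taken from the raw count table by name, as every gene whose symbol begins with Igkv, Igkc, Iglv or Iglc, which gave 168 of 54232 genes: 160 Igkv genes, Igkc, 3 Iglv genes and 4 Iglc genes. The counts came from bulk RNA sequencing of whole lacrimal glands (LGs) of 18 male mice, 1 LG from 1 mouse per sample and 3 mice per group. The groups were BALB/c mice (BALB/cJ) and NOD.H-2b mice (NOD.B10Sn-H2b/J) aged 2, 4 or 6 months (2M, 4M and 6M). The NOD.H-2b strain carries the H2b haplotype on a NOD background and is used as a model of Sjögren's syndrome, in which lymphocytes infiltrate the LG. The BALB/c mice differ from it across the whole genetic background, so a strain difference cannot be assigned to any single locus. The question the design puts to these genes is how much light chain RNA each strain held at each age, which variable genes supplied it, and how evenly they were used.

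An antibody pairs heavy chains with light chains, and each B cell builds its light chain by joining a variable (V) segment to a joining (J) segment upstream of a constant (C) segment. A mouse B cell normally keeps either a kappa or a lambda chain, and kappa predominates in the mouse. Plasma cells, the antibody-secreting descendants of B cells, hold very large amounts of light chain RNA, and in the LG they secrete IgA that is carried into tears. All descendants of a B cell inherit its joined V segment. Where light chain counts come from joined transcripts, the share of each V gene describes which V genes supplied the light chain RNA.

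The Igkv genes lay at chr6:67555497-70704177 (GRCm38), 75 on the plus strand and 85 on the minus strand, and 60 of them were annotated as pseudogenes. Igkc (ENSMUSG00000076609) followed them at chr6:70726435-70726966 on the plus strand, and all 7 lambda genes lay on the minus strand of chromosome 16. The ends of the V coding sequences are shown for the Igkv genes on which the results turn, because these bases, joined to a J segment, begin the third complementarity-determining region (CDR3), the most variable part of the antigen-binding surface. The capitals run from the last in-frame cysteine codon to the end of the V coding sequence, in the C57BL/6J reference. The first 6 lines are the leading genes of either strain other than Igkv4 members, the next 3 are Igkv4 members with contrasting use, and the last 3 were counted almost entirely in 1 strain.
Igkv14-111: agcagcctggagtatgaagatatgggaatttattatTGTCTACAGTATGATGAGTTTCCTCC
Igkv10-96: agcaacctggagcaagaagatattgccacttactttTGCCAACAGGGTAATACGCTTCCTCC
Igkv15-103: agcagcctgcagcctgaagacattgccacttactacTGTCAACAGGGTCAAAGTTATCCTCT
Igkv12-44: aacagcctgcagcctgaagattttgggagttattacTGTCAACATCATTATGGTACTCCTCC
Igkv6-32: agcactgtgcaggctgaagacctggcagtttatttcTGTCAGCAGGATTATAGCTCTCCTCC
Igkv1-110: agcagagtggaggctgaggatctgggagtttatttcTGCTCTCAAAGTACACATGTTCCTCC
Igkv4-59: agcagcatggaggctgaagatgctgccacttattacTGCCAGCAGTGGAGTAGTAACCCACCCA
Igkv4-72: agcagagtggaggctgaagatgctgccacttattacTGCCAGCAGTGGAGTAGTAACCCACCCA
Igkv4-86: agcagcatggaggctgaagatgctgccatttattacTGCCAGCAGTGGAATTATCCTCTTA
Igkv1-132: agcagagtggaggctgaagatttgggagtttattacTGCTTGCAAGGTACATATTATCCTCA
Igkv5-48: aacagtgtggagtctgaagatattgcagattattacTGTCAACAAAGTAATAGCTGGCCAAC
Igkv8-27: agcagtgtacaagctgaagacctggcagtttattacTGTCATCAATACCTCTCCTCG
Igkv4-59 and Igkv4-72 share the same capital letters. In reference coordinates, Igkv14-111 lay at chr6:68256389-68256869 on the plus strand, Igkv4-86 at chr6:68910411-68910973 on the minus strand and Igkv1-132 at chr6:67759700-67760413 on the plus strand.

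The lambda genes are few, and their sequences show which of them short reads can tell apart. The 3 Iglv ends are written in the same way as the Igkv ends.
Iglv1: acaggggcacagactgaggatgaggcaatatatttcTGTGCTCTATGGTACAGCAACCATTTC
Iglv2: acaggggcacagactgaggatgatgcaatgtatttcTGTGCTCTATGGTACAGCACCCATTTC
Iglv3: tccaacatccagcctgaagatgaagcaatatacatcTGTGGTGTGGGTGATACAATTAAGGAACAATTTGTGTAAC
For the constant genes the first 90 coding bases that all 4 share are given, with capitals where a base differs from Iglc2.
Iglc2: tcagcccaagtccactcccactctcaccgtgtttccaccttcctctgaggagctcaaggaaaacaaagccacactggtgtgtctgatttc
Iglc3: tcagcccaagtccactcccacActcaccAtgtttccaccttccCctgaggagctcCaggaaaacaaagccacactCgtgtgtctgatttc
Iglc1: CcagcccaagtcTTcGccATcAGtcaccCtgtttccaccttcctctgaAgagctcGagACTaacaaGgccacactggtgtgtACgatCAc
Iglc4: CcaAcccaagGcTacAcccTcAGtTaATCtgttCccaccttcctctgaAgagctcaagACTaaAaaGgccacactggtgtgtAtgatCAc
Over the whole coding sequence Iglc2 and Iglc3 were 96.2% identical, with 12 differing positions, whereas Iglc1 and Iglc2 were 73.4% identical. Iglv1 and Iglv2 were 96.9% identical and Iglv1 and Iglv3 55.7%. In 80 of the 160 Igkv genes at least 1 stretch of 75 bases, the length of a read, was identical to a stretch of another member, so counts could be split or lost between such genes. How the counting treated reads that fit several genes was not given in the sources used here. The genome is that of C57BL/6J, neither of the 2 strains studied, and how the alleles of each strain mapped to it was not tested.

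Total counts per sample ranged from 49480781 to 103936830, and values are given as counts per 1000000 counts of the TMM-scaled library (CPM). The 14 plasma cell markers summed to 1246 to 1828 CPM across all 18 mice, and the epithelial markers of the gland to 1281 to 1984 CPM. The 15 B cell markers summed to 7.26 to 10.7 CPM in 2M BALB/c LGs and to 414 to 815 CPM in 6M NOD.H-2b LGs, and the 12 T cell markers to 0.546 to 0.917 and 98.3 to 137 CPM. Within BALB/c the B cell sum lay at 10.2 to 13.6 CPM at 4M, close to its 2M range, and at 2M the plasma cell sums of the strains overlapped, at 1339 to 1367 CPM in BALB/c and 1246 to 1432 CPM in NOD.H-2b. The sum is weighted by its most abundant members, so this overlap does not show equal plasma cell content. At 2M the strains differed by log2 -0.10 for Txndc5 and -0.05 for Xbp1, the most abundant of the 14. By the test across all genes given below, 4 of the 14 were called, each with the higher level in NOD.H-2b. These were Jchain (log2 3.67), Pou2af1 (4.12), Slamf7 (3.13) and Irf4 (2.57). The part of other cell types in the differences below was not tested. In whole glands, more cells of a type and more RNA per cell cannot be told apart. The mice of a group differed by more than sampling noise, and each was counted as a replicate.

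Light chain RNA was higher in NOD.H-2b than in BALB/c LGs at every age, and in both strains it was higher at 4M than at 2M. The 168 genes together took 0.00358 to 0.00595% of all counts in 2M BALB/c LGs, 0.0398 to 0.0912% in 4M and 6M BALB/c LGs, 0.0243 to 0.0616% in 2M NOD.H-2b LGs and 0.238 to 0.347% in 4M and 6M NOD.H-2b LGs. The difference between strains in log2 summed CPM, averaged over the 3 ages, was 2.36 (exact permutation of strain within age, two-sided, p = 0.00025, the smallest it can give; adjusted p = 0.0035 over the 28 tests of 7 measures in 4 contrasts). The slope with age was 0.91 log2 units per month in BALB/c (exact permutation, adjusted p = 0.0303) and 0.66 in NOD.H-2b (exact permutation, adjusted p = 0.0389). Without BALB/c 4M replicate 2 the BALB/c slope was 0.91 with adjusted p = 0.0643. Leaving out any NOD.H-2b mouse other than 4M replicate 2 or 6M replicate 3 took the adjusted p of that slope to 0.05 to 0.0571. The slopes of the strains differed by -0.25 (exact permutation, adjusted p = 0.677), and that difference did not pass the test. In the 2M BALB/c mice 1 gene, Igkv14-111, held 1199, 1094 and 1495 of 2044, 2784 and 3767 light chain counts. Its level, described below, did not rise with that of the other members, so it lowers the BALB/c slope and enters the slope difference.

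Igkc, the kappa constant gene carried by every kappa transcript, stood at 9.78, 17.4 and 23.2 CPM in the 2M BALB/c mice, at 343, 238 and 517 CPM at 4M and at 276, 524 and 347 CPM at 6M. In NOD.H-2b LGs it stood at 139, 354 and 307 CPM at 2M, at 1706, 1844 and 1540.5 CPM at 4M and at 1749.5, 1633 and 1441 CPM at 6M. At each age the lowest NOD.H-2b mouse lay above the highest BALB/c mouse and, within each strain, every 2M mouse lay below every 4M mouse. In the test across all genes (quasi-likelihood test of edgeR, p adjusted by Benjamini-Hochberg and given as FDR), the log2 difference of Igkc between strains was 4.03 (SE 0.58, FDR 0.00716) at 2M, 2.22 (SE 0.30, FDR 0.00247) at 4M and 2.11 (SE 0.22, FDR 6.44e-05) at 6M. From 2M to 4M the edgeR log2 change was 4.45 in BALB/c (SE 0.52, FDR 0.0161) and 2.67 in NOD.H-2b (SE 0.39, FDR 0.0175). From 4M to 6M it was 0.05 (FDR 0.969) and -0.06 (FDR 0.83), so no change was detected with 3 mice a group. Over 2M to 6M the change in NOD.H-2b was smaller than that in BALB/c by a log2 difference of -1.92 (edgeR interaction, SE 0.56, FDR 0.0362). The 2M to 4M calls rested on single mice: edgeR's FDR in BALB/c was 0.082 without 2M replicate 2 and 0.058 without 2M replicate 3, and in NOD.H-2b it was 0.0752 without 2M replicate 3 and 0.0704 without 4M replicate 1. The interaction lost its call (FDR 0.0526 to 0.0758) when any of BALB/c 2M replicate 1 or 2, NOD.H-2b 2M replicate 2 or 3, BALB/c 6M replicate 2 or any 6M NOD.H-2b mouse was left out.

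**Figure D1:**
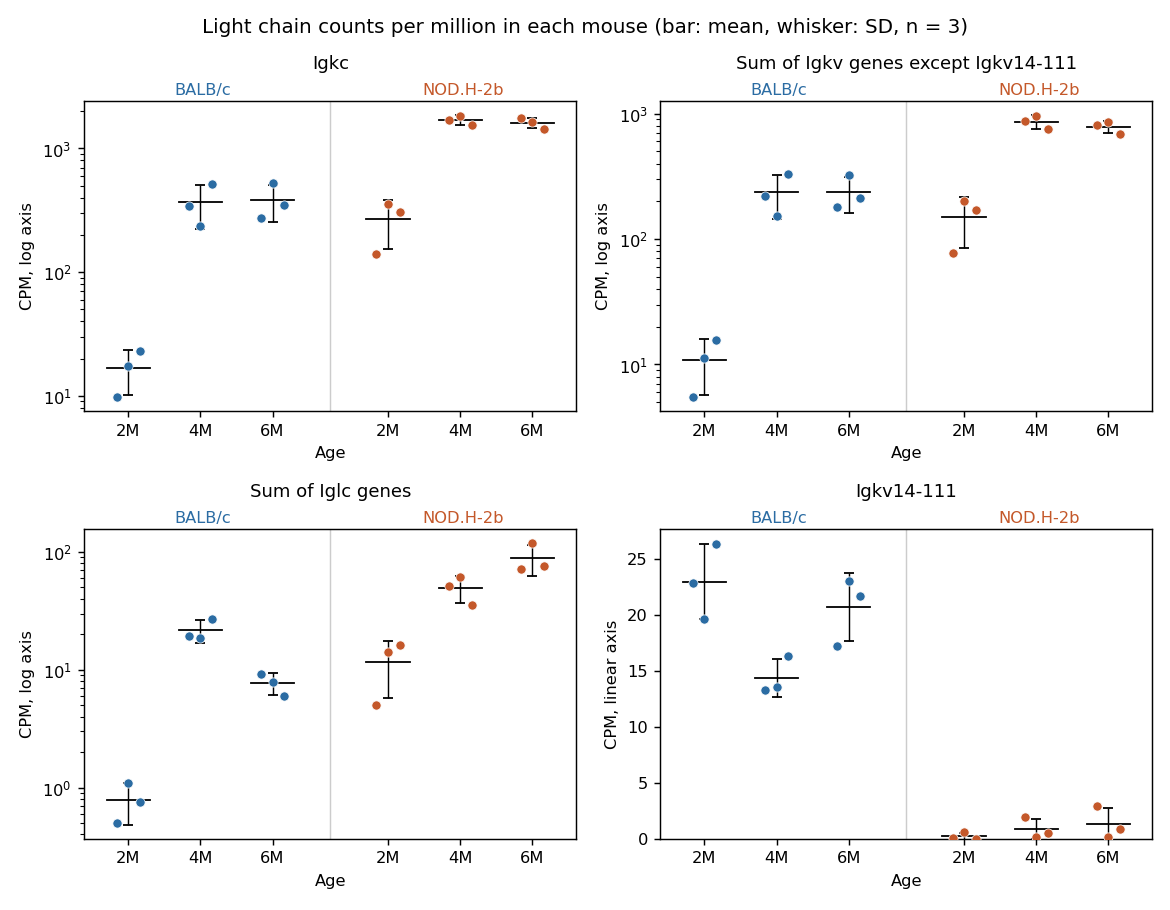
CPM of Igkc, of the Igkv genes except Igkv14-111, of the Iglc genes (log axes) and of Igkv14-111 (linear axis) against age in the 2 strains. Points are mice, bars are group means and whiskers are SD (n = 3). Igkc lies between 9.78 and 1844 CPM, lowest in the 2M BALB/c LGs and highest in the 4M and 6M NOD.H-2b LGs.

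Most light chain genes that could be tested were higher in NOD.H-2b LGs. A gene is called higher or lower here at FDR under 0.05 and a fold of at least 2. At 2M, 47 of the 60 members tested were called higher and 3 lower, against 12% and 3.76% of all genes tested. At 4M the counts were 54 and 10 of 98, against 15.6% and 4.72% of all genes. At 6M they were 61 and 13 of 98, against 18.8% and 6.03%. The median log2 difference of the members tested was 4.45, 2.54 and 2.43 at the 3 ages, while the median over all genes lay between -0.00 and 0.01. These shares describe only members with enough counts to be tested: 28 of the 168 had no count in any mouse, 43 had at most 3 counts in every mouse, and some of the others passed the filter on low counts only because 1 strain was high. Of the 60 members tested at all 3 ages, 30 were called higher each time, against 9.44% of all genes tested at all 3, and 3 were called lower each time, against 2.39%, namely Igkv14-111, Igkv4-59 and Igkv8-27. Igkv3-12 was the member called both ways, higher in NOD.H-2b at 2M (log2 3.56, edgeR FDR 0.00339) and lower at 6M (log2 -1.46, edgeR FDR 0.0119).

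With age, the rise between 2M and 4M took in many variable genes in both strains. The counts below cover only members with enough counts to be tested. Some of them, such as Igkv5-48 in BALB/c, passed the filter on low counts only because the 4M mice were high. Such members could hardly be called lower at 4M. In BALB/c 39 of 67 members tested were called higher at 4M and 0 lower (61 at an unadjusted p under 0.05), against 2.07% and 0.3% of all genes. In NOD.H-2b 55 of 90 were called higher and 1 lower, against 5.97% and 0.625% of all genes; the total of 56 fell to 23 without NOD.H-2b 2M replicate 3 and to 32 without 4M replicate 2. Among called Igkv genes with a mean of at least 50 counts over the mice compared, those with the largest rise in BALB/c were Igkv5-48, from 1 to 478 counts over the 3 mice (a ratio of 462 (82.5 to 18277), 95% counting interval), Igkv6-15, from 7 to 1048 counts, and Igkv3-12, from 5 to 582 counts. In NOD.H-2b they were Igkv5-37 (log2 5.22, SE 0.50, edgeR FDR 0.00426), Igkv4-81 (log2 4.84, SE 0.43, FDR 0.00278) and Igkv8-19 (log2 4.69, SE 0.79, FDR 0.0238; 0.111, 0.0573 and 0.0615 without 2M replicate 3, 4M replicate 1 and 4M replicate 2).

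Between 4M and 6M few members moved. In BALB/c 0 of 75 members tested were called higher and 2 lower (9 at an unadjusted p under 0.05), against 0.018% and 0.018% of all genes, and both were lambda genes, described below. In NOD.H-2b edgeR called 0 of 96 members in either direction, with 18 at an unadjusted p under 0.05, against 0.00555% of all genes higher and 0% lower; DESeq2's Wald test called 2 higher and 4 lower. The change from 2M to 6M differed between strains for 6 of 107 members, each with a smaller change in NOD.H-2b, against 1.5% of all genes in that direction and 3.6% in the other. Besides Igkc these were Igkv3-12, Igkv3-7, Igkv4-55, Igkv4-61 and Igkv6-15.

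Kappa predominated in every LG. Lambda constant counts made up 4.83, 5.92 and 3.17% of all light chain constant counts in the 2M BALB/c mice, 5.3, 7.25 and 4.96% at 4M and 3.24, 1.49 and 1.71% at 6M. In NOD.H-2b mice the values were 3.47, 3.81 and 5.01% at 2M, 2.91, 3.21 and 2.27% at 4M and 3.94, 6.78 and 4.99% at 6M. At 4M every BALB/c mouse lay above every NOD.H-2b mouse, and at 6M every BALB/c mouse lay below. Averaged over the ages, the log2 ratio of lambda to kappa differed between strains by 0.04 (exact permutation, p = 0.898, adjusted p = 0.898). The slopes with age differed by 0.39 per month (exact permutation, p = 0.0447, adjusted p = 0.0757), which did not pass; without BALB/c 2M replicate 3 or NOD.H-2b 2M replicate 3 it was 0.48 or 0.45, with adjusted p of 0.0431 or 0.0429. Over 4M and 6M alone, a window chosen after the crossing of the groups was seen, so that its test restates it, the difference in slope was 1.24 per month (exact permutation, p = 0.005, adjusted p = 0.0267).

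The variable genes gave the same order of groups at 4M and 6M. Lambda variable counts made up 6.4, 8.86 and 5.63% of V counts in BALB/c at 4M and 4.1, 2.11 and 2.44% at 6M, and 3.74, 3.9 and 2.92% and 5.18, 8.63 and 6.97% in NOD.H-2b (Igkv14-111, described below, is left out of the kappa side here). The difference in slope over 4M and 6M, with all Igkv genes, was 1.20 per month (exact permutation, adjusted p = 0.0267). Over all 3 ages it was -0.21 (exact permutation, adjusted p = 0.495). The strain difference averaged over ages was 0.95 (exact permutation, p = 0.0355, adjusted p = 0.0663), and 0.30 (p = 0.37, exact permutation) without Igkv14-111. Without BALB/c 4M replicate 2 it was 1.01 (adjusted p = 0.0442).

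**Figure D2:**
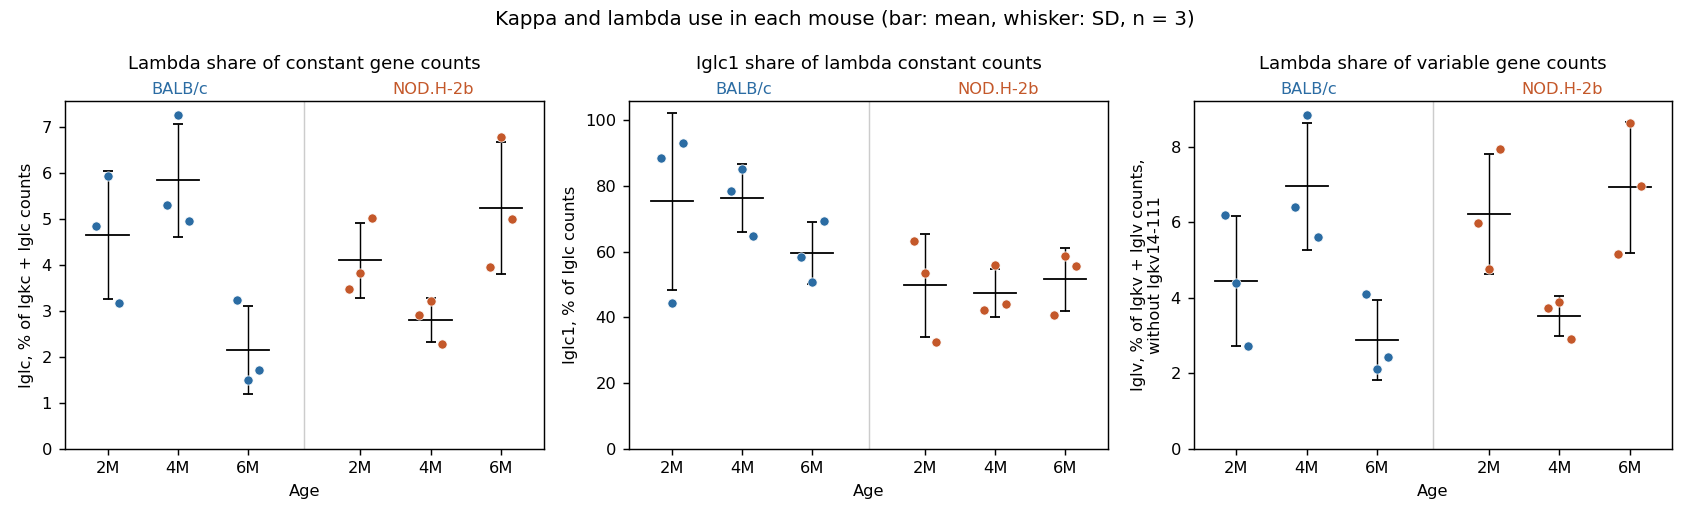
Lambda share of light chain constant counts (left), Iglc1 share of Iglc counts (middle) and lambda share of variable counts without Igkv14-111 (right), all in percent, against age in the 2 strains; points are mice, bars means and whiskers SD (n = 3). In the left and right panels, at 4M the BALB/c points lie above the NOD.H-2b points and at 6M below them.

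Among the lambda constant genes, Iglc1 (lambda 1) had the highest mean level per kilobase in both strains. Iglc1 stood at 15.1, 15.8 and 17.5 CPM in BALB/c at 4M and at 5.4, 4.02 and 4.18 CPM at 6M. In NOD.H-2b it stood at 21.6, 34.2 and 15.8 CPM at 4M and at 29.2, 69.5 and 42 CPM at 6M. The BALB/c groups did not overlap, while in NOD.H-2b they did. The log2 change of Iglc1 from 4M to 6M was -1.83 in BALB/c (SE 0.12, edgeR FDR 0.000137). Iglv1, at 12.6, 13.4 and 16.1 CPM at 4M and 5.16, 6.15 and 4.79 CPM at 6M, changed by -1.40 (SE 0.12, edgeR FDR 0.00134). These were the 2 members called lower in BALB/c from 4M to 6M, and fitted with all 18 mice together their FDR was 0.0522 and 0.0722. In NOD.H-2b the changes of the 6 tested lambda genes from 4M to 6M were all positive, between 0.41 and 1.57, and edgeR called none of them (FDR 0.296 to 0.387).

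The edgeR test called all 6 tested lambda genes higher in NOD.H-2b than in BALB/c at 2M and at 6M, and 3 of the 6 at 4M. At 6M the log2 difference was 3.39 for Iglc1 (SE 0.39, edgeR FDR 0.000987), 3.59 for Iglc2 (FDR 0.000217), 4.24 for Iglc3 (FDR 8.74e-06), 2.99 for Iglv1 (FDR 0.000327), 3.61 for Iglv2 (FDR 0.0299) and 3.73 for Iglv3 (FDR 1.02e-06). At 4M Iglc2 (2.12, FDR 0.0142), Iglc3 (2.46, FDR 0.0337) and Iglv3 (2.63, FDR 3.85e-05) passed, while Iglc1 (0.57, FDR 0.171), Iglv1 (0.82, FDR 0.0443, under 2-fold) and Iglv2 (0.82, FDR 0.201) were not called. At 2M, where the 3 BALB/c mice held 26, 61 and 43 Iglc counts, the edgeR log2 differences ran from 3.33 for Iglc1 to 6.63 for Iglv2 (FDR 0.0499), all 6 called. The weaker calls depended on single mice. Leaving out 1 mouse took FDR to as much as 0.209 for Iglv2 and 0.0942 for Iglc2 at 2M (without any BALB/c mouse or NOD.H-2b replicate 2 for Iglv2, and without BALB/c replicate 1 or 3 or NOD.H-2b replicate 2 for Iglc2) and to 0.0981 to 0.118 for Iglc3 (without BALB/c replicate 1 or 3 or NOD.H-2b replicate 2 or 3). At 4M FDR without a mouse was 0.0593 to 0.0624 for Iglc2 (BALB/c or NOD.H-2b replicate 1) and 0.0731 to 0.109 for Iglc3 (BALB/c replicate 1 or any NOD.H-2b mouse), Iglv1 was called without NOD.H-2b replicate 3 (1.05, FDR 0.000523) and Iglv2 without BALB/c replicate 3 (1.39, FDR 0.0149). At 6M FDR of Iglv2 was 0.0615 to 0.0959 without BALB/c replicate 2 or any NOD.H-2b mouse.

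The make-up of the lambda pool also differed by strain. Iglc1 took 78.5, 85.2 and 64.8% of Iglc counts in the BALB/c mice at 4M and 58.4, 50.7 and 69.4% at 6M, against 42.3, 55.9 and 44.1% and 40.7, 58.5 and 55.5% in NOD.H-2b. At 2M the shares were 88.5, 44.3 and 93% in BALB/c and 63.2, 53.6 and 32.5% in NOD.H-2b. At 4M the strains did not overlap, and at 2M and 6M they did. The log2 ratio of Iglc1 to Iglc2 plus Iglc3 differed between strains by -1.51 over the 3 ages (exact permutation, p = 0.0112, adjusted p = 0.0303). Without NOD.H-2b 2M replicate 2 or 3 the adjusted p was 0.056 or 0.0677. Per kilobase of exon, the mean over the 9 mice was 15.6 CPM per kb for Iglc1, 3.79 for Iglc2 and 1.43 for Iglc3 in BALB/c, and 55.9, 29.9 and 13.9 in NOD.H-2b, beside 479 and 2238 for Igkc. Among the V genes Iglv1 stood at 16.9 CPM per kb in BALB/c against 62.3 in NOD.H-2b, Iglv2 at 2.47 and 14.7, and Iglv3 at 1.01 and 10.1. Iglc4 held 0 counts in all 9 BALB/c mice and 0 to 6 counts per mouse in NOD.H-2b.

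Within kappa, Igkv14-111 was lower in NOD.H-2b at every age and dominated the V counts of young BALB/c LGs. In BALB/c it stood at 22.9, 19.6 and 26.4 CPM at 2M, 13.3, 13.6 and 16.3 CPM at 4M and 17.3, 23.1 and 21.7 CPM at 6M, and in NOD.H-2b at 0.0657, 0.578 and 0, 1.92, 0.154 and 0.54 and 2.94, 0.157 and 0.841 CPM. Every BALB/c mouse lay above every NOD.H-2b mouse, and in BALB/c its level did not follow the rise of the other light chain genes. The log2 difference between strains was -6.65 at 2M (SE 0.68, edgeR FDR 0.00181), -4.01 at 4M (FDR 0.0157; 0.0542 without NOD.H-2b replicate 3) and -3.87 at 6M (FDR 0.0172; 0.054 without BALB/c replicate 2 and 0.0647 without NOD.H-2b replicate 3). From 2M to 4M in BALB/c it changed by -0.67 (SE 0.12, edgeR FDR 0.00674), under 2-fold and so not called. Its share of Igkv counts in BALB/c was therefore 80.6, 63.4 and 62.7% at 2M, 5.7, 8.13 and 4.67% at 4M and 8.81, 6.65 and 9.25% at 6M. Against Igkc it gave 234, 113 and 114 counts per 100 Igkc counts at 2M, above the count of Igkc itself, and 3.16 to 6.25 at 4M and 6M. Whether its counts came from joined light chain transcripts was not tested, so its share need not describe V gene use. None of its 75-base stretches was identical to a stretch of another member. Measures of Igkv use are given below with and without this gene.

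The rest of the kappa pool was led by different genes in the 2 strains. After Igkv14-111, the Igkv genes with the largest mean share of Igkv counts in BALB/c were Igkv1-110 (6.04% ± 8.8, SD, n = 9), Igkv10-96 (3.24% ± 1.3), Igkv4-59 (3.22% ± 1.78) and Igkv4-72 (3.15% ± 2.88). In NOD.H-2b they were Igkv10-96 (6.2% ± 2.04), Igkv15-103 (6.09% ± 3.2), Igkv12-44 (5.61% ± 2.94), Igkv6-32 (4.76% ± 2.05) and Igkv1-110 (4.27% ± 1.29). Igkv10-96 and Igkv1-110 were on both lists. These shares keep Igkv14-111 in the total, which lowers those of the other genes in BALB/c, most of all at 2M. With Igkv14-111 left out, Igkv10-96 held 24.3% of Igkv counts in BALB/c 2M replicate 1. The mean shares of a gene in the 2 strains are therefore not like for like. The BALB/c mean of Igkv1-110 rested on 4M replicate 3, without which it was 3.2% ± 2.33 (SD, n = 8), behind Igkv10-96 and Igkv4-59. Over the 6 BALB/c mice at 4M and 6M, where Igkv14-111 took less of the total, the order was Igkv1-110 at 8.84% ± 9.79 (SD, n = 6), Igkv14-111, Igkv4-72 and Igkv4-59. Igkv10-96 was called higher in NOD.H-2b at all 3 ages (log2 3.63, 2.75 and 2.08, edgeR FDR 0.00153, 0.0101 and 0.00178), as was Igkv15-103 (log2 6.98, 3.37 and 3.39, FDR 0.0071, 0.00221 and 0.0112). Igkv4-59 went the other way, with 9.21, 5.18 and 10.8 CPM in BALB/c at 4M against 3.0, 0.896 and 1.2 CPM in NOD.H-2b, and a log2 difference of -1.77, -2.29 and -2.85 at the 3 ages (edgeR FDR 0.0176, 0.0203 and 0.00422; 0.109 and 0.0662 at 2M without BALB/c or NOD.H-2b replicate 3, 0.0571 and 0.0665 at 4M without BALB/c replicate 1 or NOD.H-2b replicate 3).

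In single mice the leading gene varied. Igkv14-111 led in all 3 BALB/c mice at 2M and in 2 of 3 at 6M, where Igkv4-68 led in the other with 12.4% of Igkv counts. At 4M each BALB/c mouse had a leader of its own: Igkv4-53 with 8.42%, Igkv4-57 with 10.1% and Igkv1-110 with 28.8%. In NOD.H-2b the leaders were Igkv10-96, Igkv15-103 and Igkv4-86 at 2M, Igkv10-96, Igkv12-44 and Igkv6-32 at 4M, and Igkv12-44 once and Igkv15-103 in 2 mice at 6M, with shares of 7.42 to 14.6%. The Igkv1-110 comparison at 4M was decided by 1 mouse. With all mice its log2 difference between strains was -0.14 (edgeR FDR 0.939), and without BALB/c replicate 3 it was 1.95 (FDR 0.00491), called higher in NOD.H-2b.

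**Figure D3:**
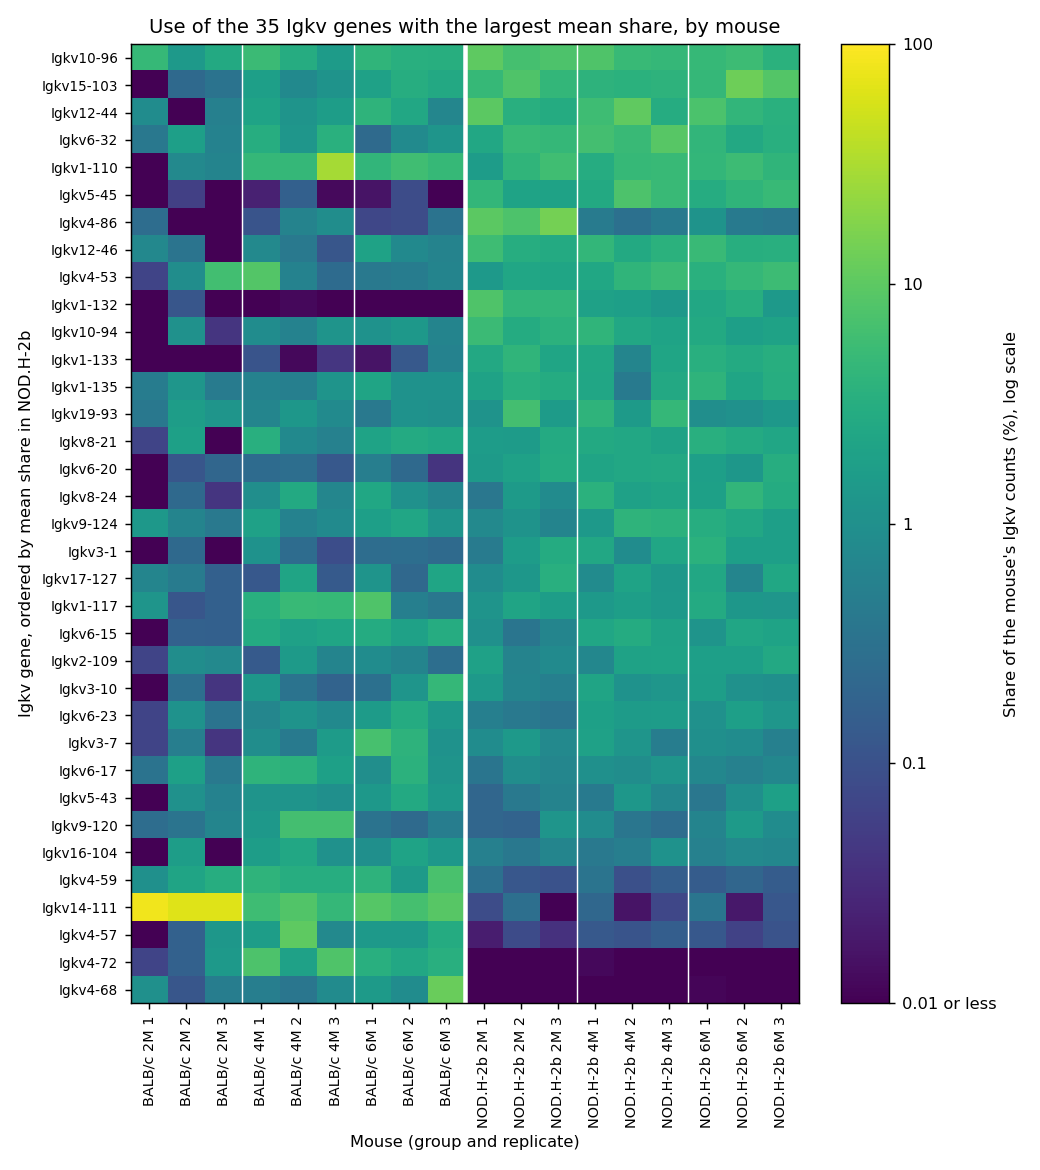
Share of each mouse's Igkv counts (colour, percent on a log scale, values at or under 0.01% in the darkest colour) for the 35 Igkv genes with the largest mean share, ordered by their mean share in NOD.H-2b (rows), in the 18 mice (columns). Igkv14-111 is brightest in the 2M BALB/c mice, and Igkv4-72 and Igkv4-68 are dark in all NOD.H-2b mice.

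Igkv4-86 had its highest mean level in the 2M NOD.H-2b LGs. It stood at 7.57, 15.3 and 24.9 CPM at 2M, 3.98, 2.84 and 3.36 CPM at 4M and 9.31, 3.76 and 2.68 CPM at 6M in NOD.H-2b, and at 0.0764, 0 and 0, 0.258, 1.04 and 3.15 and 0.139, 0.298 and 0.795 CPM in BALB/c. It held 9.72, 7.56 and 14.6% of Igkv counts in the 2M NOD.H-2b mice. At 2M the strains did not overlap, with 4 counts in BALB/c against 3054 in NOD.H-2b, a ratio of 661 (258 to 2429) by counting error alone (edgeR FDR 0.00301; 0.0525 without BALB/c replicate 1). In NOD.H-2b it was the member called lower from 2M to 4M, with a log2 change of -2.23 (SE 0.47, edgeR FDR 0.0371), and every 2M mouse lay above every 4M mouse. Leaving out any mouse but 2M replicate 1 took FDR to 0.0534 to 0.125.

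A set of Igkv genes was counted in 1 strain and hardly at all in the other. Of the 160 Igkv genes, 12 had at most 3 counts in every BALB/c mouse and a mean of at least 30 counts in NOD.H-2b, and 2 showed the reverse, against 0.23% and 0.0295% of all 54232 genes in the table; 5 of the 12 were annotated as pseudogenes in C57BL/6J. The NOD.H-2b mice held more Igkv counts, with a mean of 37488 per mouse against 10499.6 in BALB/c, and this bears on the rule. With the NOD.H-2b counts thinned to the BALB/c mean, 7 Igkv genes were counted in NOD.H-2b only and 5 in BALB/c only, so the 2 counts lay closer together at matched depth. Igkv1-132 had 4 counts over the 9 BALB/c mice and 7915 over the 9 NOD.H-2b mice, where the lowest mouse held 371, the median 581 and the highest 1604 counts. The ratio per TMM-scaled library was 1826 (95% counting interval 713 to 6702). Counts in BALB/c against NOD.H-2b were 1 against 2884 for the pseudogene Igkv2-116, 3 against 2326 for Igkv4-81 and 1 against 1901 for the pseudogene Igkv4-56. The genes with 0 counts in BALB/c were Igkv4-78 (1834 in NOD.H-2b, at least 564-fold higher), the pseudogene Igkv12-40 (1729, at least 532-fold) and Igkv1-131 (1125, at least 346-fold), each bound taken at 3 counts over the 9 BALB/c mice. Intervals and bounds cover counting error only.

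In the reverse direction, Igkv5-48 had 1119 counts in BALB/c against 7 in NOD.H-2b, a ratio of 173 in favour of BALB/c (83.8 to 432), and Igkv8-27 had 1088 and 4, a ratio of 295 (115 to 1084). Igkv4-72, among the leading BALB/c genes, had 963, 158 and 1859 counts at 4M and 617, 403 and 340 at 6M in BALB/c, and at most 7 in any NOD.H-2b mouse. Igkv4-68 ranged from 2 to 1241 counts in BALB/c against from 0 to 7 in NOD.H-2b. Neither Igkv4 gene overlapped between strains at 4M or 6M. By counting error the ratio in favour of BALB/c was 395 (200.1 to 915) for Igkv4-72 at 4M (edgeR FDR 0.00977; 0.0538 without NOD.H-2b replicate 1) and 192 (101 to 421) for Igkv4-68 at 6M (edgeR FDR 0.021; 0.0743 to 0.0953 without any 1 of the 6M NOD.H-2b mice).

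The calls at single ages included many genes that met this rule and some that did not, such as Igkv1-133 and Igkv4-86. At 2M the called Igkv genes with at least 50 counts on average and the largest rise in NOD.H-2b were Igkv1-133 (0 counts in BALB/c against 925 in NOD.H-2b, at least 267-fold higher, edgeR FDR 0.0298; 0.0594 and 0.112 without BALB/c or NOD.H-2b replicate 3), Igkv4-86 and Igkv1-132 (edgeR FDR 4.81e-08). At 4M they were Igkv4-81 (at least 349-fold higher, FDR 0.000123), Igkv2-116 (at least 359-fold, FDR 0.000123) and Igkv4-56 (at least 303-fold, FDR 7.42e-06). At 6M they were Igkv4-78 (at least 318-fold, FDR 0.0149; 0.125 without NOD.H-2b replicate 2), Igkv1-132 (FDR 0.000109) and Igkv12-40 (at least 323-fold, FDR 0.000217). Lower in NOD.H-2b were Igkv8-27 and Igkv5-48 at 4M (edgeR FDR 1.07e-05 and 1.07e-05) and at 6M (FDR 3.92e-06 and 1.37e-06), beside Igkv14-111, Igkv4-72 and Igkv4-68. Genes at or near 0 counts in 1 strain passed the filter on low counts only through the other, so their calls are no separate support. Igkv1-133 at 2M, Igkv4-81, Igkv2-116 and Igkv4-56 at 4M, and Igkv4-78 and Igkv12-40 at 6M had 0 counts in BALB/c.

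**Figure D4:**
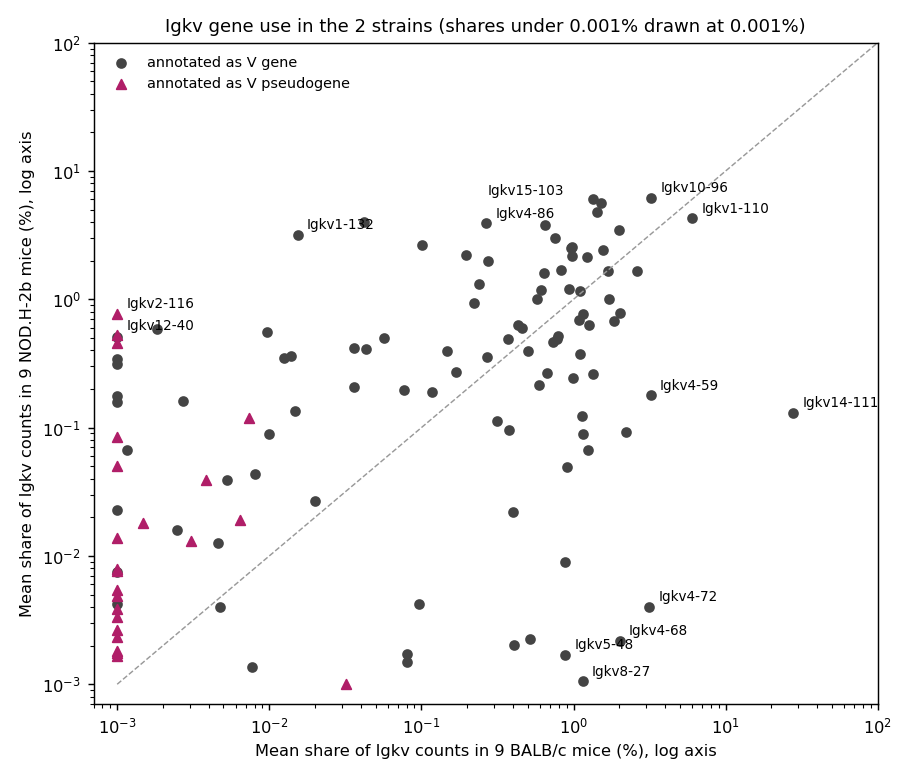
Mean share of Igkv counts over 9 BALB/c mice (x axis, percent, log scale) and 9 NOD.H-2b mice (y axis, percent, log scale), 1 symbol per Igkv gene, with triangles for pseudogenes and shares under 0.001% drawn at 0.001%. Genes on the dashed line had equal mean shares, with Igkv14-111 kept in the total. Igkv14-111 lies at 27.8% and 0.131%, and most pseudogenes lie along the left edge.

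Genes grouped by V subgroup, the sequence families given by the first number of the symbol, showed where the strains diverged. Igkv4, with 33 genes the largest subgroup, took 28.4% ± 12.3 (SD, n = 9) of Igkv counts without Igkv14-111 in BALB/c and 12% ± 3.72 (SD, n = 9) in NOD.H-2b. Igkv12 took 5.25% ± 3.33 (SD, n = 9) and 10.9% ± 3.44 (SD, n = 9), and Igkv15, which has Igkv15-103 as its counted gene, 1.54% ± 1.11 (SD, n = 9) and 6.09% ± 3.2 (SD, n = 9). Igkv1 took 12.9% ± 9.76 (SD, n = 9) and 15.9% ± 3.54 (SD, n = 9), and Igkv6 10.1% ± 3.14 (SD, n = 9) and 13.1% ± 4.06 (SD, n = 9). The ranges of Igkv15 did not overlap between strains, and those of Igkv4 overlapped. At the depth of the libraries 31 Igkv4 genes had over 3 counts in some NOD.H-2b mouse against 22 in BALB/c, and 27 against 22 after the thinning of NOD.H-2b described above. Pseudogenes took 0 to 0.202% of Igkv counts in BALB/c and 1.17 to 3.39% in NOD.H-2b, without overlap. By position, the genes in the part of the locus nearer to Igkc (starting beyond chr6:69239458, the median start) took 35.5 to 42.5% of Igkv counts without Igkv14-111 in NOD.H-2b mice at 2M, and 48.2 to 60.9% at 4M and 6M. In BALB/c these genes took 35.7 to 67.9% over all ages.

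Evenness of Igkv use was measured in each mouse as the effective number of genes, the number of equally used genes that would give the same Shannon diversity. In BALB/c it was 2.88, 6.94 and 6.45 at 2M, 39.2, 41.3 and 23.6 at 4M and 39.4, 45.1 and 36.2 at 6M, and in NOD.H-2b 31.8, 37 and 34.7, 44.3, 41.8 and 42.3 and 44.4, 40.3 and 49. At 2M the strains lay far apart, and at 4M and 6M they were close or overlapped. The strain difference was 13.8 effective genes over the 3 ages (exact permutation, p = 0.0025, adjusted p = 0.021), and the slope was 8.70 per month in BALB/c (adjusted p = 0.0296, exact permutation) and 2.52 in NOD.H-2b (adjusted p = 0.0296, exact permutation; 0.0536 and 0.0571 without 2M replicate 1 or 6M replicate 3). Much of this moved with Igkv14-111 and with depth. Leaving out Igkv14-111 gave a strain difference of 6.67 (exact permutation, adjusted p = 0.0414). Leaving it out and drawing every mouse down to 288 Igkv counts gave 4.01 (adjusted p = 0.173, exact permutation), with 18.7, 30.9 and 25.5 at 2M, 36.2, 39.5 and 20.2 at 4M and 33.9, 38.4 and 31.1 at 6M in BALB/c and 27.2, 32 and 30.8, 38.3, 36.5 and 33.1 and 38.8, 33.3 and 40.6 in NOD.H-2b. At equal depth and without this gene, the strain difference in the effective number did not pass. The effective number also rises with the number of genes seen, and Pielou evenness, its logarithm divided by that of the number of genes with a count, ran the other way. Without Igkv14-111, and computed after seeing the data with no test, Pielou evenness was 0.811, 0.859 and 0.821 in BALB/c and 0.772, 0.793 and 0.784 in NOD.H-2b at 2M, 0.83, 0.85 and 0.702 and 0.808, 0.778 and 0.789 at 4M, and 0.829, 0.857 and 0.832 and 0.793, 0.785 and 0.818 at 6M. BALB/c was thus the more even strain by this measure at 2M and 6M, without overlap. After thinning to 288 counts Pielou evenness overlapped between strains at every age, over 0.765 to 0.923 in BALB/c against 0.824 to 0.906 in NOD.H-2b.

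The share of the 5 most used Igkv genes was 89, 74.2 and 78.4% in BALB/c at 2M, 31.7, 34.4 and 52.6% at 4M and 31.9, 28.8 and 38.2% at 6M, and 43.2, 33.6 and 37.2%, 28.4, 32.8 and 29.2% and 26.5, 33.2 and 26.6% in NOD.H-2b. The strain difference was -18.7 percentage points (exact permutation, adjusted p = 0.021), and -5.76 without Igkv14-111 (adjusted p = 0.113, exact permutation). The slope in NOD.H-2b was -2.31 points per month (exact permutation, adjusted p = 0.0462), and it lost its call (adjusted p 0.05 to 0.106) without 2M replicate 1 or 3, 4M replicate 2 or 3, or 6M replicate 1 or 3.

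**Figure D5:**
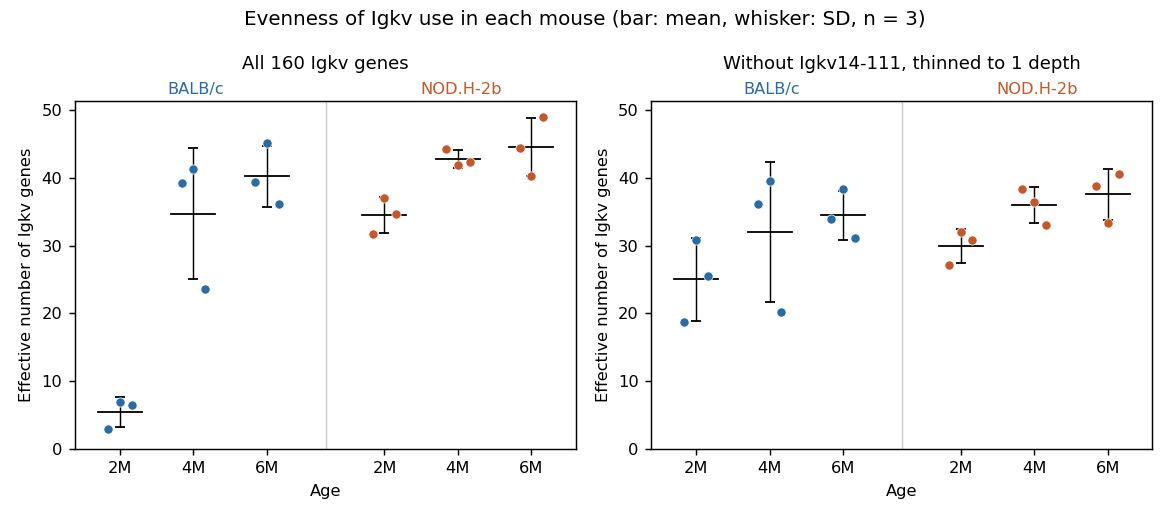
Effective number of Igkv genes against age in the 2 strains, over all 160 Igkv genes (left) and without Igkv14-111 after thinning each mouse to the same number of counts (right). Points are mice, bars are means and whiskers are SD (n = 3); the 2M BALB/c mice lie at 2.88 to 6.94 on the left and at 18.7 to 30.9 on the right.

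Genes that stood out in a single mouse were found mainly in BALB/c. Counting an Igkv gene as private to a mouse when it took at least 2% of that mouse's Igkv counts and at least 5 times the share of either other mouse of its group, 16 cases were found, 14 in BALB/c (4 at 2M, 6 at 4M and 4 at 6M) and 2 in NOD.H-2b (both at 2M). The largest was Igkv1-110 in BALB/c 4M replicate 3, with 28.8% of Igkv counts against at most 4.7% in the other mice of its group and 6747 counts. It was followed by Igkv4-68 in BALB/c 6M replicate 3 (12.4% of Igkv counts against at most 1.51% in the other mice of its group) and Igkv4-57 in BALB/c 4M replicate 2 (10.1% against at most 1.71%). Igkv4-53 in BALB/c 4M replicate 1 (8.42% against at most 0.585%) and Igkv1-117 in BALB/c 6M replicate 1 (7.9% against at most 0.534%) came next. Mice with fewer light chain counts, as the BALB/c mice were, give less precise shares, and this count was not tested between strains. Of the 75-base stretches of Igkv1-110 and Igkv1-117, 31.2% and 30.9% were identical to stretches of other members.

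Whole Igkv profiles were compared by the share of Igkv counts, without Igkv14-111, that would have to be moved to turn the profile of a mouse into that of another. Within groups it averaged 60.7% at 2M, 41.6% at 4M and 38.3% at 6M in BALB/c, and 29.8%, 23.7% and 22.2% in NOD.H-2b (3 pairs of mice each). Between strains at the same age it averaged 60.0% (51.3 to 73.4% over 27 pairs). Between 4M and 6M within a strain it averaged 43.6% in BALB/c against 25.1% in NOD.H-2b, close to the values within a group. NOD.H-2b mice at 4M and 6M thus held profiles more alike than those of BALB/c mice of the same ages, as a description over pairs that share mice. The profiles were not thinned, and BALB/c mice held fewer Igkv counts, down to 288 without Igkv14-111 in a 2M mouse. Fewer counts add sampling noise to these distances, and its part in the strain contrast was not tested.

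Igkv counts were also set against Igkc counts. In BALB/c there were 2.9, 1.78 and 1.81 Igkv counts per Igkc count at 2M, 0.68, 0.701 and 0.676 at 4M and 0.71, 0.663 and 0.676 at 6M, and in NOD.H-2b 0.56, 0.573 and 0.553, 0.514, 0.522 and 0.49 and 0.463, 0.527 and 0.477. Without Igkv14-111 the BALB/c values were 0.562, 0.651 and 0.676, 0.641, 0.644 and 0.645 and 0.647, 0.619 and 0.614. With that gene left out, every BALB/c mouse lay above every NOD.H-2b mouse at 4M and at 6M, and at 2M the strains overlapped. The log2 ratio differed between strains by -0.94 (exact permutation, p = 0.00025, the smallest it can give, adjusted p = 0.0035), and by -0.29 without Igkv14-111 (exact permutation, p = 0.0005, adjusted p = 0.007). The slope in NOD.H-2b was -0.05 per month (exact permutation, adjusted p = 0.0296; 0.05 to 0.0536 without 2M replicate 2, 4M replicate 1 or 6M replicate 1 or 3). The slopes differed between strains by 0.36 (exact permutation, adjusted p = 0.0473), which without Igkv14-111 became -0.05 (adjusted p = 0.0979). That difference also lost its call without any 1 of the BALB/c mice or NOD.H-2b 6M replicate 2 (adjusted p 0.0536 to 0.0898).

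The genes around the light chains give the setting. Over the 18 mice the genes whose log2 CPM followed that of Igkc most closely, members aside, were Jchain (Pearson r = 0.995), which encodes the chain that joins secreted IgA and IgM, Igha (r = 0.993), the IgA heavy chain, Pou2af1 (r = 0.991), a B cell coactivator, Ighj4 (r = 0.983) and Igkj1 (r = 0.982). For the summed Iglc genes they were Igkj1 (r = 0.968), Pou2af1 (r = 0.966), Ighj3 (r = 0.963), Igha (r = 0.954) and Ighv1-18 (r = 0.954). Strain and age move all of these genes, so the correlations describe the groups as well as the mice. Of the 8 heavy chain constant genes in the table, 5 of 6 tested were called higher in NOD.H-2b at 2M, 6 of 7 at 4M and 6 of 7 at 6M, and 0 lower. Over all genes tested, 12%, 15.6% and 18.8% were called higher at these ages. Ighg2b, at 0, 0 and 0.0176 CPM in the 2M BALB/c mice, passed the filter at 2M only through NOD.H-2b. The mapping of each strain's heavy chain alleles to the C57BL/6J reference, which bears on genes such as Ighg2c, was not tested. Igha differed by log2 3.95, 1.76 and 1.78, edgeR FDR 0.00753, 0.0233 and 6.55e-05, and Ighm, the IgM heavy chain, by log2 4.54, 5.53 and 6.29, edgeR FDR 0.00717, 7.33e-05 and 1.64e-05. Jchain differed by log2 3.67, 1.66 and 1.68, edgeR FDR 0.0111, 0.00596 and 0.00109.

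Genes that take part in building light chains were also examined. In the list of 18 genes of V(D)J rearrangement and light chain development, 2 of 11 tested were called higher in NOD.H-2b at 2M, 3 of 12 at 4M and 4 of 12 at 6M, against 12%, 15.6% and 18.8% of all genes, and 0 were called lower, and the median log2 difference of those tested was 0.26, 0.31 and 0.49. Those called were Il7r and Spi1 at all 3 ages, Irf8 at 4M and 6M and Vpreb3 at 6M, genes of lymphoid and myeloid cells rather than of the recombinase itself. Of the 2 subunits of the recombinase, both named after their values were seen, Rag1 had 0 counts in all 18 mice, and Rag2 had 1 count in 1 NOD.H-2b mouse at 6M and 0 in the others. Of the antibody assembly list, chaperones and folding enzymes of the endoplasmic reticulum, 0 of 19 were called in either direction at any age, a call needing a 2-fold difference. Their median log2 difference was 0.02, -0.17 and -0.41 at the 3 ages. Their summed CPM overlapped at 2M. It was lower in NOD.H-2b at 4M (6922 to 8159 against 8183 to 8403 in BALB/c) and 6M (5358 to 6846 against 8399 to 9752), without overlap. In the somatic hypermutation and germinal centre list 2 of 7, 1 of 7 and 4 of 8 tested were called higher at 2M, 4M and 6M. The 14 plasma cell markers had 4, 7 and 5 called higher and 0 lower, among them Jchain, while Txndc5 and Xbp1, the most abundant of them, stood at 317 to 531 and 263 to 429.8 CPM over all mice and were not called. Of the B cell markers 4 of 8, 15 of 15 and 15 of 15 were called higher at the 3 ages, and of the T cell markers 12 of 12 at each. Many of these passed the filter on low counts only because NOD.H-2b was high, and could hardly be called lower. Among BALB/c mice at 2M and 4M, only 6 of the 15 B cell and 2 of the 12 T cell markers could be tested. The median log2 difference at the 3 ages was 0.57, 0.60 and 0.46 over the plasma cell markers and 4.72, 7.05 and 8.60 over the B cell markers tested, beside the medians of all genes and of the light chain genes given above. The plasma cell median covers called markers, such as Jchain, and uncalled ones, such as Txndc5 and Xbp1. It does not measure how plasma cell content differed. The B cell medians carry the limit of the filter given above. The antibody transport list had 1 of 3 called higher at each age, but not the same gene throughout. At 2M this was Pigr (log2 2.21, edgeR FDR 0.00226), the receptor that carries IgA across the epithelium. Pigr differed by -0.42 and -0.41 at 4M and 6M and was not called. At 4M the called gene was B2m (log2 1.30, edgeR FDR 0.000105). Of 12 epithelial markers 2 were called higher at 2M, 1 lower at 4M and 1 higher at 6M. From 2M to 4M the heavy chain constant genes rose in 4 of 5 tested in BALB/c against 4 of 7 in NOD.H-2b, the plasma cell markers in 5 of 14 in each strain, and the B cell markers in 3 of 6 and 8 of 15. Of all genes tested, 2.07% were called higher over these months for BALB/c, against 5.97% for NOD.H-2b. From 4M to 6M no gene of any of the 9 lists was called in either strain. Hardly any gene was called over that interval: 0.018% of all genes tested were higher and 0.018% lower for BALB/c, against 0.00555% and 0% for NOD.H-2b. The absence of calls therefore does not set these lists apart from other genes.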

How the data were processed

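RNA from 1 LG per mouse was depleted of ribosomal RNA and sequenced as read pairs. Per the labels and the methods of the study, the authors used cutadapt to trim adapters and STAR to align reads to GRCm38, and deposited raw gene counts from HTSeq; versions, annotation release, strand setting and the treatment of reads that fit several genes are not given in the sources used here. The deposited normalized counts were not used. Gene positions and sequences came from GENCODE M21 (GRCm38), in which all 168 members were found. No sample column fell outside the labels.

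Members, lists and tests were chosen with earlier results of these data known. Counts were tested with edgeR 4.0.16 (robust quasi-likelihood test, TMM, filterByExpr; R 4.3.3) over all genes, with the 6 mice of each comparison or, for strain by age, all 18. DESeq2 1.42.0, other scaling, no filter, an 18-mouse fit, a replicate block and leaving out each mouse were alternatives. Measures per mouse were tested by exact two-sided permutation, with Benjamini-Hochberg adjustment over 28 tests. Genes at 0 were set to a floor of 3 counts over the group for bounds, and ratios have 95% exact counting intervals. Scripts were tested on simulated data. Nothing shows that mice of a group came from separate litters, so p-values cover the spread between these mice only.

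The named genes are Igkc, every Iglc and Iglv gene, the 5 Igkv genes with the largest mean share in each strain, the leading Igkv gene of each mouse, the 3 called Igkv genes in each direction and comparison with the largest change and a mean of at least 50 counts, up to 8 strain-restricted Igkv genes, the 5 largest private ones, at most 3 genes per list by mean count and the 5 genes most like Igkc and most like the summed Iglc genes. Genes outside it that the text names were chosen after their values were seen.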

Additional observations from a re-analysis of the deposited data

Results flagged for a closer look

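Each result here was a change with age that differed between the strains in a test of that difference, over all 3 ages unless stated. For Igkv to Igkc the slope in NOD.H-2b exceeded that in BALB/c by 0.36 log2 units per month. From 4M to 6M the slope of the lambda to kappa ratio was higher in NOD.H-2b than in BALB/c by 1.24 per month for the constant genes and by 1.20 for the variable genes. This window was chosen after the groups were seen to cross between these ages, so its tests restate that observation. Over all 3 ages the slopes differed by 0.39 (exact permutation, adjusted p = 0.0757) for the constant genes and by -0.21 (exact permutation, adjusted p = 0.495) for the variable genes, and neither passed. The change from 2M to 6M in NOD.H-2b minus that in BALB/c was -1.92 for Igkc. It was -5.03 (SE 1.12, edgeR FDR 0.010) for Igkv3-12, which stood at 0.0764, 0 and 0.0176 CPM at 2M and 4.28, 4.17 and 8.44 CPM at 6M in BALB/c, and at 0.181, 0.396 and 0.534 and 2.49, 2.29 and 1.1 CPM in NOD.H-2b. It was -5.30 for Igkv4-55 (edgeR FDR 0.0155), -3.39 for Igkv4-61 (FDR 0.0175), -3.13 for Igkv6-15 (FDR 0.0337; 0.0505 to 0.0826 without BALB/c 2M replicate 1, 2 or 3, NOD.H-2b 2M replicate 1 or 3, BALB/c 6M replicate 2 or 3, or NOD.H-2b 6M replicate 1 or 3) and -5.19 for Igkv3-7 (FDR 0.0481; 0.0556 to 0.104 when any mouse was left out other than BALB/c 4M replicate 2 or 3, NOD.H-2b 4M replicate 1 or 3 and BALB/c 6M replicate 3). Each of these Igkv genes had at most 9 counts in any 2M BALB/c mouse. Igkv4-61 was named after its values were seen. Groups of 3 mice were too small to look for outlying samples.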

How the results depend on the processing

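The strain comparisons of the light chain total, of Igkv to Igkc and of the number of members called at each age kept their direction and side of the threshold, or stayed within 1.5 times, under every alternative. Without Igkv14-111 the age slopes in BALB/c were 3.84 effective genes, -3.16 points of top 5 share and -0.00089 for Igkv to Igkc, the strain difference in top 5 share was -5.76, and the difference in slope of Igkv to Igkc turned to -0.04996, none past the threshold; thinned as well, effective genes differed by 4.01 between strains and 2.36 per month in BALB/c. Over 4M and 6M alone, chosen after seeing the data, lambda to kappa slopes differed by 1.24 (constant) and 1.20 (variable, reversed), Igkv to Igkc by -0.0258 (reversed), and strains by -1.19 in Iglc1 to Iglc2 and Iglc3, 6.23 effective genes and -6.80 points. The slopes in NOD.H-2b lost their call for effective genes after thinning (2.30) and as inverse Simpson index (2.06), and for top 5 share after thinning (-1.83), without pseudogenes (-2.25), without genes at the floor in a strain (-2.34) and as top 1 (-0.30). Top 1 share gave -21.43 for strain and 14.61 for strain by age, effective genes without genes at the floor 9.50 for strain, and the light chain slope in BALB/c as a median over Igkv genes 0.0556. Members called were, with no filter, 7 from 4M to 6M in BALB/c, 1 in NOD.H-2b and 3 for strain by age; by DESeq2 they were 4, 6 and 20, and fitted with 18 mice 0 in BALB/c.

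Same-numbered mice had deviations that correlated at -0.30 to 0.29, in no common direction, and were not treated as pairs. With 3 mice a group this cannot exclude pairing by number. A replicate block gave 25 members from 2M to 4M and 2 from 4M to 6M in NOD.H-2b. Leaving out each mouse in turn moved the light chain slope over 0.80 to 1.03 in BALB/c and 0.51 to 0.73 in NOD.H-2b, the lambda slope difference (constant) over 0.30 to 0.48, the lambda strain difference (variable) over 0.88 to 1.05, and Iglc1 to Iglc2 and Iglc3 over -1.92 to -1.24 for strain, -0.68 to -0.21 for age in BALB/c and 0.24 to 0.71 for strain by age. In NOD.H-2b the slope of effective genes ranged over 2.08 to 3.13, of top 5 share over -2.94 to -1.58 and of Igkv to Igkc over -0.0652 to -0.0436, and the slope difference of the last over 0.27 to 0.39. Members called ranged over 23 to 49 from 2M to 4M and 0 to 2 from 4M to 6M in NOD.H-2b and 3 to 7 for strain by age, and Igkv1-110 at 4M over -0.64 to 1.95. Of 514 values of named genes under other alternatives, 471 kept their side, 37 lost and 6 gained a call. With the NOD.H-2b Igkv counts thinned to the mean Igkv total of BALB/c, an alternative added after seeing the data, 7 Igkv genes were counted in NOD.H-2b only and 5 in BALB/c only. The cause of these changes was not tested. At 2M the few light chain counts of BALB/c limit every share.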

Other observations

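The kappa joining segments, which are not among the 168 genes, were also counted. Over the 6 mice of each strain at 4M and 6M, with 2311 Igkj counts in BALB/c against 10908 in NOD.H-2b, Igkj1 took 34.3% (23.7 to 51%) of Igkj counts in BALB/c and 33.3% (29.1 to 39.6%) in NOD.H-2b, and Igkj2 29.8% (18 to 38.6%) and 24.8% (21.3 to 29.5%). Igkj3 took 4.23% (2.36 to 6.98%) and 8.59% (7.47 to 10.4%), Igkj4 13.7% (7.58 to 17.8%) and 8.45% (6.85 to 9.87%), and Igkj5 18% (12.5 to 23.7%) and 24.9% (21.4 to 28.5%). The ranges of Igkj3 did not overlap, and those of the other 4 segments did. These segments are shorter than a read, and which of their reads the counting kept is not known.

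Among the heavy chain genes, Ighg1 stood at 1629, 8.62 and 23.4 CPM in the NOD.H-2b mice at 4M, so the first of these mice was far above the other two, while its Igha level of 1393 CPM lay below their 3141 and 2499.9 CPM. Its Igkc level of 1706 CPM lay between theirs, and no Igkv gene met the rule for a private gene in it. Its leading Igkv gene, Igkv10-96, held 7.81% of its Igkv counts. Ighg2c stood at 1.43, 7.27 and 17.7 CPM at 2M, 77.9, 63.6 and 49.9 CPM at 4M and 339.8, 139 and 116 CPM at 6M in NOD.H-2b, and at no more than 1.81 CPM in any BALB/c mouse. How the heavy chain alleles of each strain mapped to the C57BL/6J reference was not tested. The low BALB/c value therefore does not show how much RNA of this IgG class BALB/c held. Igkv5-45, named after its values were seen, took 0.0419% of Igkv counts in BALB/c against 4.01% in NOD.H-2b.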
